A study of Mus musculus with 10 samples.

Results

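The 10 genes described here, C1qa, C1qb, C1qc, Csf1r, Cx3cr1, Tyrobp, Fcer1g, Mrc1, Cd68 and Ptprc, mark macrophages and, in part, other leukocytes. They were chosen by name as macrophage genes, and every probe set annotated to exactly 1 of them was taken, 16 probe sets for 10 of the 18194 genes measured. The arrays held RNA of metanephric mesenchyme, the embryonic kidney tissue around the ureteric bud, from E11.5 mice. The 5 mutant pools came from Wnt9b-/- embryos and the 5 wild-type pools from littermates labelled Wnt9b+/+, although the series' design text names the controls as Wnt9b+/-. Wnt9b is a Wnt ligand made by the ureteric bud. All embryos came from crosses of heterozygotes with no strain named in the labels, and each array held 25 to 30 pooled mesenchymes freed of the bud with trypsin and pancreatin. A pool therefore averages many embryos, and the spread between arrays includes the spread between pools.

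Macrophages of the early embryo arise from yolk sac and fetal liver progenitors and enter organs, the kidney among them, before those organs work. They clear dying cells, and their survival depends on the receptor encoded by Csf1r. C1qa, C1qb and C1qc encode the chains of C1q, the recognition molecule of the classical complement pathway, which in most tissues is made by macrophages. In tissue that was not sorted, more macrophages in a pool and more RNA of these genes per macrophage cannot be told apart.

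In the mutant pools the genes of this group had higher means than in the wild-type pools, by small amounts and with overlapping groups. All 10 differences were above 0, with a median of 0.35 on the log2 scale, against a median of 0.02 over all genes, of which 54.9% lay above 0. No member passed an adjusted p of 0.05 in limma, a threshold passed by 0.0055% of all genes. C1qa had the largest difference, 1.66-fold higher in the mutant, and Cd68 and Ptprc the smallest, 1.03-fold and 1.04-fold. Mutant and wild-type arrays overlapped for every member, as for most genes. Of all genes, 0.654% had every mutant array above every wild-type array. Since the members were chosen with results of these arrays known, the shared direction is given as a description.

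Signals are the intensities deposited by the authors, and log2 values are of signal + 1, so a fold change is on that scale and understates that of dim genes. Pairs of arrays correlated at 0.915 to 0.954. Mutant replicate 2 stood apart for these genes. Its mean log2 signal over the 10 genes was 6.88, the lowest of all 10 arrays, against 7.64, 7.74, 7.61 and 7.28 in mutant replicates 1, 3, 4 and 5. The wild-type arrays had 7.31, 7.07, 7.0015, 6.90 and 7.29. Thus 3 mutant arrays lay above every wild-type array and mutant replicate 2 lay below them all. It was the lowest mutant array for 8 of the 10 genes. It also had the brightest hybridisation controls, with a mean log2 signal of 11.87, followed by wild-type replicate 3 at 11.48, against 9.79 to 10.87 on the other arrays. Over the 10 arrays, with group means removed, the members' mean correlated with these controls at -0.54, and at 0.01 without mutant replicate 2. The part of this in the members' values was not tested, and the members' differences are also given without it where they moved most.

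The promoter windows of RefSeq on GRCm38.p6, each 250 bases before to 50 bases after a start site, held 8 windows for 7 of the members. C1qa, Csf1r and Tyrobp had no window. The windows of Ptprc overlap in part, so the 8 are not all separate sequences. The motif GAGGAA, a core that transcription factors of the ETS family such as PU.1 can bind, was searched for on both strands, as GAGGAA or TTCCTC. It was present in 5 of the 8 windows, of C1qb, C1qc, Mrc1, Cd68 and the second window of Ptprc, against 28.3% of 32851 windows of that length. It was not in the windows of Cx3cr1 and Fcer1g or in the first window of Ptprc. A match describes these letters only. The windows shown are those of C1qb and C1qc, chains of a single molecule that lie side by side, Fcer1g, which followed C1qa and C1qc most closely over the arrays, and Mrc1, the window with the most matches. They are given 5′ to 3′ on the gene's strand, with matches in capitals.
C1qb, chr4:136886151-136886450, minus strand: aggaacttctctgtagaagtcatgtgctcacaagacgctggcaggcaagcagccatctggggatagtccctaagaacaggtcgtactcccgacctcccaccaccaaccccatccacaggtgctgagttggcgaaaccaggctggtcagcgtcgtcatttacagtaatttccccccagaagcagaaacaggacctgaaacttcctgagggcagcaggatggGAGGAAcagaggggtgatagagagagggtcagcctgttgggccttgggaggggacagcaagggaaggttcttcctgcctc
C1qc, chr4:136892865-136893164, minus strand: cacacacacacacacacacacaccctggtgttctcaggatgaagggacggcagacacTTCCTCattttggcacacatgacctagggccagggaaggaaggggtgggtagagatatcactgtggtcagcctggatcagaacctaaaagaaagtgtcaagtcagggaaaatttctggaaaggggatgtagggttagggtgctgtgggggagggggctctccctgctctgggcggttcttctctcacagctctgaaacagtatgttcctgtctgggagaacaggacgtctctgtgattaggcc
Fcer1g, chr1:171234300-171234599, minus strand: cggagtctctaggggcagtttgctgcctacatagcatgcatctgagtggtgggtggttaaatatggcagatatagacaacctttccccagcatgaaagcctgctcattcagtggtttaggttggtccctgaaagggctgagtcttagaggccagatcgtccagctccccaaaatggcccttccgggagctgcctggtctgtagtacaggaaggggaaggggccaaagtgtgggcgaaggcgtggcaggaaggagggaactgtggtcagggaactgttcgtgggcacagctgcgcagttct
Mrc1, chr2:14229164-14229463, plus strand: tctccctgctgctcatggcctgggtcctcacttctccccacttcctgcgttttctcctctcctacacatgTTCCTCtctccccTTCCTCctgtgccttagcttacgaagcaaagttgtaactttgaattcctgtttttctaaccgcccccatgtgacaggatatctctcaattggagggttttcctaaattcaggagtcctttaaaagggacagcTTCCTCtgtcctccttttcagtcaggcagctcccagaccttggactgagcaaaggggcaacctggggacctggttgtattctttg
C1qb held its match 30 bases before the start site and C1qc 193 bases before it. Mrc1 held 3 matches, starting 180, 167 and 35 bases before the start site, and none overlapped another.

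The C1q chain genes lie next to each other on chromosome 4 in the order C1qb, C1qc, C1qa, with no other RefSeq gene between them. C1qa had signals of 394, 174, 438, 261 and 207 in mutant replicates 1 to 5, against 230, 149, 162, 130 and 178 in wild-type replicates 1 to 5. Mutant replicates 1, 3 and 4 lay above all wild-type arrays, while mutant replicates 2 and 5 lay among them. The log2 signal was 8.12 ± 0.57 in the mutant and 7.39 ± 0.31 in wild type (SD, n = 5 each), a difference of 0.73 (SE 0.27, 95% interval 0.12 to 1.34). C1qa was the only member with an unadjusted limma p under 0.05 (0.0242), a level at which 3.41% of all genes were higher and 2.08% lower in the mutant, and its limma adjusted p was 0.858. The exact permutation test over all arrangements of the arrays, two-sided and unadjusted, gave p = 0.0476. Without mutant replicate 2 the difference was 0.89, and it was 0.56 without mutant replicate 3. The unadjusted limma p was above 0.05 without mutant replicate 1 (0.0595), mutant replicate 3 (0.0571), wild-type replicate 2 (0.0502) or wild-type replicate 4 (0.0574). It was 0.0510 with arrays of shared title wording as a block, and 0.0774 and 0.0840 within the high and the low set of arrays by 18S control signal.

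C1qc had signals of 193, 120, 262, 173 and 111 in the mutant arrays, against 191, 104, 111, 131 and 94.0 in the wild-type arrays. Mutant replicates 1 and 3 were above every wild-type array, the first of them only narrowly above wild-type replicate 1. The difference was 0.42 (SE 0.27, 95% interval -0.18 to 1.03, limma adjusted p = 0.959), and it was 0.25 without mutant replicate 3 and 0.53 without mutant replicate 2.

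C1qb was measured by 3 probe sets. The brightest, 1434366_x_at, had 446, 263, 534, 551 and 469 in the mutant arrays, against 438, 432, 432, 269 and 431 in the wild-type arrays. All mutant arrays but replicate 2 were above every wild-type array, and wild-type replicate 4 was as low as mutant replicate 2. This probe set differed by 0.15 (SE 0.23, limma adjusted p = 0.999), or by 0.34 without mutant replicate 2, by 0.08 and 0.07 without mutant replicates 3 and 4, and by 0.02 without wild-type replicate 4. The others, 1417063_at and 1437726_x_at, differed by 0.32 and 0.36, and neither passed. The x_at probe sets, a suffix Affymetrix gives to probes that may also match other transcripts, correlated with each other at 0.92 after group means were removed, and with 1417063_at at 0.30 each, over 10 arrays.

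**Figure D1:**
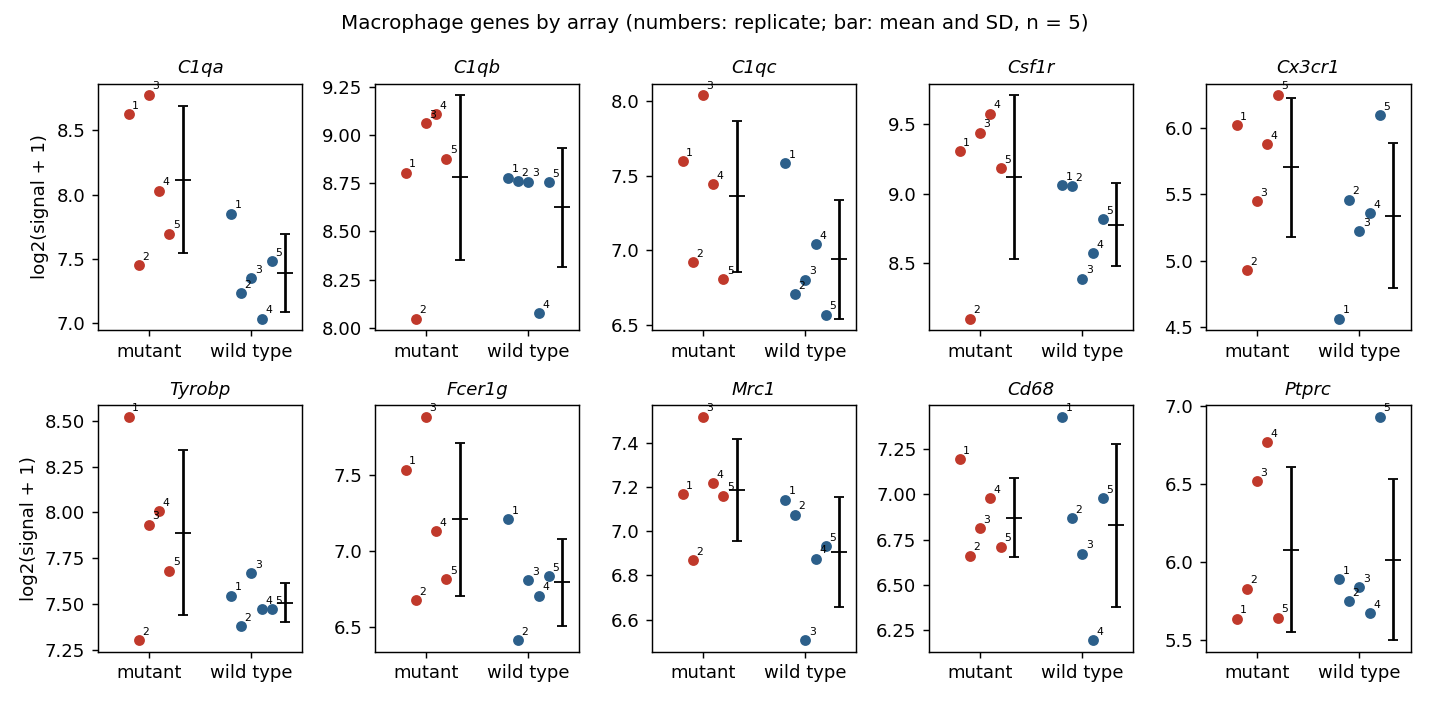
Log2(signal + 1) of the brightest probe set of each of the 10 genes in the 5 mutant arrays (red, left) and the 5 wild-type arrays (blue, right), with replicate numbers beside the points and the mean and SD in black; vertical scales differ between panels. The groups overlap in every panel, and mutant replicate 2 is the lowest mutant array in 8 of the 10.

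Csf1r encodes the receptor for the growth factors CSF1 and IL-34. Its brightest probe set, 1419872_at, had 633, 273, 694, 763 and 581 in the mutant arrays, against 532, 530, 334, 379 and 449 in the wild-type arrays. Mutant replicates 1, 3, 4 and 5 exceeded every wild-type array, and mutant replicate 2 was below them all. The difference was 0.34 (SE 0.28, 95% interval -0.27 to 0.96, limma adjusted p = 0.988), and 0.60 without mutant replicate 2, where its unadjusted p was 0.00707 and its limma adjusted p 0.607. A second probe set, 1419873_s_at, had 167, 115, 238, 227 and 208 in the mutant arrays, against 151, 164, 107, 118 and 104 in the wild-type arrays, a difference of 0.54 (SE 0.23). The third, 1423593_a_at, had 163, 199, 168, 151 and 149 in the mutant arrays, against 149, 118, 111, 143 and 95.6 in the wild-type arrays, a difference of 0.44 (SE 0.16). Here mutant replicate 2 was the highest array, the opposite of its place on the other 2 probe sets. Over the arrays, with group means removed, 1423593_a_at correlated with 1419872_at at -0.34, while 1419872_at and 1419873_s_at correlated at 0.88. Both dimmer probe sets had an unadjusted p under 0.05 in the fit over probe sets (0.0419 and 0.0214), a level passed upward by 2.56% of all probe sets, and a limma adjusted p of 1.00.

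Of the partners of this receptor, Csf1 differed by -0.02 and Il34, a dim gene here, by 0.38 (SE 0.25), and neither passed. Cx3cr1 encodes the receptor for CX3CL1, found on microglia and many tissue macrophages of the embryo. It was dim, among the dimmest 40% of genes, with signals of 63.9, 29.5, 42.6, 57.9 and 75.1 in the mutant arrays, against 22.7, 43.0, 36.3, 40.1 and 67.5 in the wild-type arrays. Wild-type replicate 5 lay within the high end of the mutant arrays and mutant replicate 2 within the low end of the wild-type arrays. The difference was 0.36 (SE 0.31, limma adjusted p = 0.988). It was 0.17 without wild-type replicate 1, 0.23 without mutant replicate 5, 0.55 without wild-type replicate 5 and 0.56 without mutant replicate 2. A second, dimmer probe set gave 0.91 (SE 0.71) at signals of 2.26 to 30.9. The ligand gene Cx3cl1 differed by -0.33 (limma adjusted p = 0.987).

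Tyrobp and Fcer1g encode transmembrane adaptors that pass on signals of activating receptors, Tyrobp for TREM2 and related receptors and Fcer1g for Fc receptors. Tyrobp had signals of 367, 157, 243, 256 and 204 in the mutant arrays, against 186, 165, 202, 177 and 176 in the wild-type arrays. The wild-type arrays were close together, 4 mutant arrays were above all of them, and mutant replicate 2 was below all of them. The log2 signal was 7.89 ± 0.45 in the mutant and 7.51 ± 0.11 in wild type (SD, n = 5 each), a difference of 0.38 (SE 0.20, 95% interval -0.07 to 0.83, limma adjusted p = 0.941). It was 0.53 without mutant replicate 2 and 0.22 without mutant replicate 1.

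Fcer1g had 184, 101, 235, 139 and 111 in the mutant arrays, against 147, 84.0, 111, 103 and 113 in the wild-type arrays. Mutant replicates 1 and 3 were the only arrays above wild-type replicate 1. The difference was 0.42 (SE 0.25, 95% interval -0.13 to 0.96, limma adjusted p = 0.946), and it was 0.25 without mutant replicate 3 and 0.55 without mutant replicate 2.

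Mrc1, the mannose receptor of many tissue macrophages, had 143, 116, 182, 148 and 142 in the mutant arrays, against 140, 134, 89.9, 116 and 121 in the wild-type arrays. Mutant replicate 2 was level with wild-type replicate 4, and the other mutant arrays were above all wild-type arrays, 3 of them by little. The difference was 0.28 (SE 0.16, 95% interval -0.07 to 0.63, limma adjusted p = 0.946), and it was 0.18 without wild-type replicate 3 and 0.36 without mutant replicate 2.

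Cd68, a lysosomal membrane protein of macrophages, had 146, 100, 111, 125 and 104 in the mutant arrays, against 172, 116, 101, 72.0 and 125 in the wild-type arrays. The wild-type arrays held both the highest and the lowest value. The difference was 0.04 (SE 0.22, 95% interval -0.44 to 0.53, limma adjusted p = 0.999), and it was -0.12 without wild-type replicate 4 and -0.04 without mutant replicate 1. Ptprc encodes CD45, the phosphatase on all leukocytes. It was among the dimmest 40% of genes, with 48.8, 55.8, 90.7, 108 and 49.0 in the mutant arrays, against 58.4, 52.8, 56.3, 50.04 and 121 in the wild-type arrays. The highest value of all was that of wild-type replicate 5. The difference was 0.06 (SE 0.31, 95% interval -0.62 to 0.75, limma adjusted p = 0.999), and it was -0.11 without mutant replicate 4, -0.05 without mutant replicate 3, and -0.60 on a second probe set with signals of 3.04 to 29.4.

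Taking every probe set on its own, 15 of 16 were above 0, where 51.8% of all probe sets were. Those of C1qa and the dimmer pair of Csf1r, 3 in all, had an unadjusted limma p under 0.05. That level was passed upward by 2.56% of all probe sets. None passed after limma's adjustment over all probe sets, which 0.00444% of them did.

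**Figure D2:**
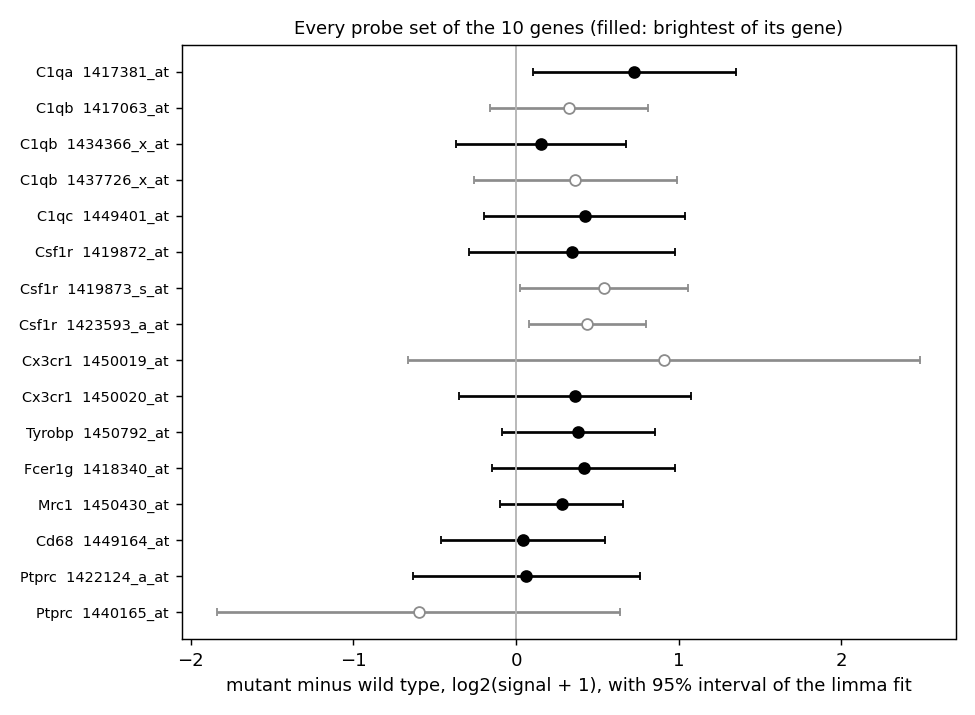
Difference between mutant and wild type in log2(signal + 1), with its 95% interval, for each of the 16 probe sets from the limma fit over all probe sets; filled points are the brightest probe set of each gene. The intervals of C1qa and of the dimmer Csf1r probe sets lie above 0, before any adjustment for the number of probe sets tested.

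How far the members varied together from array to array depended on mutant replicate 2. With group means removed, 41 of the 45 pairs of members correlated above 0, with a median Pearson r of 0.45 and a range of -0.43 to 0.95. Without mutant replicate 2, which was chosen after seeing the data, 33 pairs were above 0, with a median of 0.34 and a range of -0.85 to 0.93. These are descriptions over 10 or 9 arrays that share their scaling, and no p is given. The same count over pairs of all genes is not given here, so it does not set the members apart. Over the 10 arrays, with group means removed, the members' mean also correlated with the array median at 0.48. The closest pair was C1qa and Fcer1g, with r = 0.95 and Spearman's rho = 0.98. Without the 2 arrays farthest from the median of C1qa r was 0.86, and within the 6 arrays with low 18S ribosomal RNA control signal it was 0.98, and without mutant replicate 2 it was 0.93; the other 4 arrays are too few for a value. C1qc and Fcer1g followed at r = 0.88 (rho = 0.82, 0.77 without the 2 farthest arrays and 0.86 without mutant replicate 2). C1qb and Csf1r had r = 0.82 (rho = 0.83), which was 0.44 without the 2 arrays farthest from the median of C1qb and 0.48 without mutant replicate 2. Over the 10 arrays Cx3cr1 and Ptprc, both among the dimmest 40% of genes, were least like the rest. The part of their low signal in this was not tested. Against the mean of the other 9 genes Cx3cr1 had r = 0.10, and Ptprc 0.37, while the other 8 members had 0.54 to 0.85, with C1qa the highest. Without mutant replicate 2 the likeness to the other 9 was -0.50 for Cx3cr1 and 0.23 for Tyrobp, and 0.37 to 0.79 for the other 8, again with C1qa the highest.

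Among 10908 other genes outside the dimmest 40%, the 10 whose pattern over the arrays was most like the mean of the members, with group means removed, were Pxt1, Ankrd50, Tmem181a, Rnf103, Ppbp, Tmem14a, Scamp1, Atf7, Cep128 and Pcnx4. Their r was 0.92 to 0.95 over 10 arrays, against a 95th percentile of 0.66 over the genes searched, and 0.81 to 0.89 without mutant replicate 2. They were picked for the highest r, so they lie above that percentile by construction. The values without mutant replicate 2 reuse arrays that picked them and are no separate check. Ppbp, a chemokine of platelets and megakaryocytes, was the only gene among them from the lists of related cell types. It had signals of 301, 163, 340, 280 and 178 in the mutant arrays, against 207, 189, 184, 159 and 198 in the wild-type arrays. Mutant replicates 1, 3 and 4 were its highest arrays, as for C1qa. Its difference was 0.37 (SE 0.21, limma adjusted p = 0.946).

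Other macrophage genes were listed apart from the members, and none of them passed in limma after adjustment. In a list of macrophage identity genes, 20 of 24 measured were higher in the mutant (median 0.25), but 14 of the 24 were among the dimmest 40% of genes. Adgre1, which encodes the F4/80 antigen, had 192, 132, 147, 201 and 154 in the mutant arrays, against 180, 128, 134, 107 and 112 in the wild-type arrays, with overlap (difference 0.33, SE 0.18). Sirpa and Cd14 had an unadjusted p under 0.05. Sirpa, which is also expressed outside macrophages, had 204, 309, 217, 200 and 254 in the mutant arrays, against 186, 177, 183, 191 and 191 in the wild-type arrays, without overlap (difference 0.33, SE 0.13, limma adjusted p = 0.880). It was highest in mutant replicate 2, where the members were lowest. Cd14, the co-receptor for lipopolysaccharide, differed by 1.05 (SE 0.45) at signals of 12.01 to 121. Of the other genes of the list outside the dimmest 40%, Folr2 differed by 0.32, Ms4a6c by 0.30, Lyz2 by 0.27 and Stab1 by 0.14. Ms4a7 and F13a1, whose order over the arrays was close to that of the members (r = 0.81 and 0.77), differed by 0.16 and 0.07. Mertk differed by 0.05 and Fcgr1 by -0.14, and 4 of the 24 genes were lower in the mutant.

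Of genes of the macrophage lysosome and phagosome, 9 of 11 were higher (median 0.18). Ctss, the protease cathepsin S, had 476, 182, 447, 655 and 417 in the mutant arrays, against 288, 215, 247, 153 and 342 in the wild-type arrays. Its order over the arrays was close to that of the members (r = 0.87 over 10 arrays, 0.67 without mutant replicate 2), with 4 mutant arrays above every wild-type array and mutant replicate 2 within the wild-type range (difference 0.74, SE 0.34). Ctsc, cathepsin C, had r = 0.92 (0.86 without mutant replicate 2) and differed by 0.08. Cyba, a subunit of the phagocyte oxidase also found in other cells, differed by 0.40 (SE 0.15, limma adjusted p = 0.858). Of 14 partners of Fc receptors and adaptors, 12 were higher (median 0.25). Syk, the kinase that binds the adaptors' phosphorylated tails, differed by 0.71 (SE 0.24, limma adjusted p = 0.760).

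Transcription factors of macrophages did not share the direction. Of 9 measured, 3 were higher and 6 lower (median -0.01), and 4 of the 9 were outside the dimmest 40% of genes. The 3 higher were Maf at 0.44 (SE 0.28), Cebpa at 0.26 and Irf8 at 0.11. Of the lower genes, Irf5, Cebpb and Tfec were near 0, at -0.006, -0.01 and -0.03. Spi1, which encodes PU.1, had 90.6, 66.1, 113, 63.7 and 62.7 in the mutant arrays, against 71.4, 110, 57.5, 96.4 and 80.6 in the wild-type arrays, a difference of -0.07 (limma adjusted p = 0.999). Runx1, among the dimmest 40% of genes, differed by -0.88 (SE 0.43, limma adjusted p = 0.919). Its signal was 12.9 in mutant replicate 1 against at least 54.3 in all other arrays.

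In the list of CSF1, CX3CL1 and complement partners 7 of 10 genes were higher (median 0.13), with an unadjusted p under 0.05 for Serping1 and for C1ra, whose signals were 1.553 to 26.6. Serping1 encodes the inhibitor of the proteases that bind C1q. It had 562, 545, 558, 575 and 589 in the mutant arrays, against 445, 477, 520, 435 and 424 in the wild-type arrays, without overlap (difference 0.30, SE 0.10, limma adjusted p = 0.722). Genes of phagocytic bridging and uptake were split, 6 of 13 higher (median -0.01), and Mfge8, a bridging protein for dying cells, differed by -0.32 (SE 0.12, limma adjusted p = 0.868).

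Markers of other blood cells were set beside the members, and no gene of these lists passed after adjustment. Genes expressed in all leukocytes were higher in 12 of 14 cases (median 0.34), with the lysosomal protein gene Laptm5 at 0.37 (SE 0.16, limma adjusted p = 0.887). The list of inflammatory cytokine genes also held Arg1, Nos2, Chil3, Retnla, Il10 and Tgfb1, so its values are not those of inflammatory cytokines alone. It had 14 of 18 genes higher (median 0.16), most of them dim. Ccl12 had the smallest p, with a difference of 1.26 (SE 0.58) and signals of 4.08 to 37.8. Monocyte and neutrophil genes were split, 6 of 12 higher (median -0.02), with Prtn3 at 0.24, and 11 of the 12 were among the dimmest 40%. Lymphocyte genes were likewise dim in 11 of 13 cases (median 0.12), with Cd8a at 0.38 (SE 0.16). Genes of mast cells and megakaryocytes were higher in 9 of 12 (median 0.28). Pf4, which in mouse embryos is expressed in megakaryocytes and in macrophages, had 760, 507, 755, 636 and 525 in the mutant arrays, against 497, 509, 476, 483 and 506 in the wild-type arrays. Mutant replicate 2 was just below the highest wild-type array and the other mutant arrays were above it (difference 0.34, SE 0.14, limma adjusted p = 0.880). Pf4 and Ppbp were the only genes of that list outside the dimmest 40% with r above 0.66 against the members.

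MHC class II genes, which antigen-presenting macrophages can carry, had the opposite direction, with 6 of 7 lower in the mutant (median -0.39). H2-Ab1, among the dimmest 40% of genes, had 16.7, 35.2, 14.5, 42.5 and 59.8 in the mutant arrays, against 118, 98.3, 164, 132 and 158 in the wild-type arrays, without overlap (difference -2.12, SE 0.37, limma adjusted p = 0.283). Cd74 differed by -0.61 (SE 0.21, limma adjusted p = 0.793), also without overlap. The groups overlapped for the other genes of the list. Among these, H2-Aa differed by -0.45 (SE 0.52) and H2-Eb1 by -0.17 (SE 0.16), and H2-DMa was the gene that was higher, by 0.40 (SE 0.18).

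Lists of genes of other cell types in the pools were compared too, and none of their genes passed after adjustment. Erythroid genes were higher in 9 of 11 (median 0.13), with Gata1 at 0.56, and endothelial genes in 13 of 14 (median 0.14), with Cdh5 at 0.26. Their mean log2 signals were 8.06 to 8.69 in the mutant and 7.71 to 8.43 in wild type for erythroid genes, and 8.20 to 8.51 in the mutant and 8.002 to 8.47 in wild type for endothelial genes. Nephron progenitor genes had means of 8.22 to 9.09 in the mutant, against 9.29 to 9.51 in wild type, without overlap, and 10 of 11 were lower (median -0.66), Uncx (-1.28), Itga8 (-0.77), Gdnf (-1.12) and Cited1 (-1.11) having the smallest p. Among mutant arrays, replicates 5 and 2 had the highest progenitor means, 9.09 and 9.01, and the lowest macrophage means. This inverse order was not seen in wild type. There replicates 3 and 4 had the lowest progenitor means, 9.29 and 9.31, and also the lowest macrophage means. Ureteric bud genes had means of 7.64, 7.51, 6.97, 5.83 and 7.01 in the mutant arrays, against 6.29 to 7.07 in wild type, with Rab25 at 0.70 (SE 0.43), and renal stroma genes were higher in 6 of 8 (median 0.15), Pdgfra by 0.36 and Tbx18 by 0.46. A change in the share of a cell type and a change in RNA per cell cannot be told apart here. The part of these differences in the members' values was not tested.

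**Figure D3:**
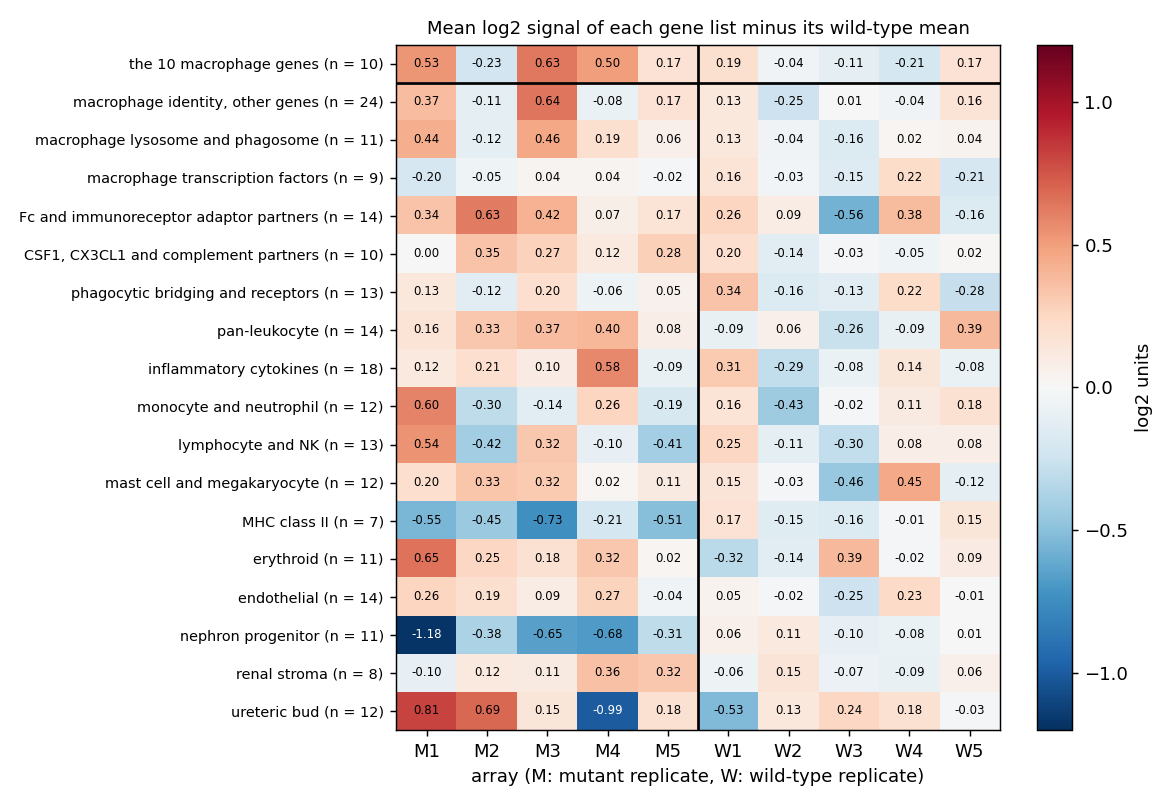
Mean log2(signal + 1) of each gene list in each array minus the mean of the 5 wild-type arrays, with mutant arrays M1 to M5 on the left and wild-type arrays W1 to W5 on the right; red is above and blue below the wild-type mean. The row of the 10 macrophage genes is positive in M1, M3, M4 and M5 and negative in M2, while the MHC class II and nephron progenitor rows are negative in all mutant arrays.

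The difference in the members depended in size on single arrays. With each array left out in turn, the median over the 10 genes was lowest with mutant replicate 3 left out, at 0.25, and highest with mutant replicate 2 left out, at 0.53. Without mutant replicate 2, 5 members, C1qa, Csf1r, Tyrobp, Fcer1g and Mrc1, had an unadjusted p under 0.05, a level at which 3.66% of all genes were higher in that fit. With all arrays 1 member did, against 3.41% of all genes. Without mutant replicate 2 the smallest limma adjusted p of a member was 0.607. That array was picked after its mean over these genes was seen to be the lowest. Its removal therefore raises their mean difference by construction. For the remaining arrays (M mutant, W wild type), the count was 0 on dropping M1, M3, W2 or W4. In those fits 2.69% to 3.46% of all genes were higher at that level. The count was 1 on dropping M4, M5, W1, W3 or W5, against 2.90% to 3.70% of all genes. The arrays fall into 2 sets by an 18S control, 4 with signals of 1975 to 2587 and 6 with 92.4 to 322, each holding as many mutant as wild-type arrays. Within the high set 8 of the 10 genes were higher in the mutant, with a median of 0.32, and within the low set all 10 were, with a median of 0.35. C1qa differed by 0.51 in the high set and by 0.87 in the low set, and Cd68 by -0.08 and 0.12.

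**Figure D4:**
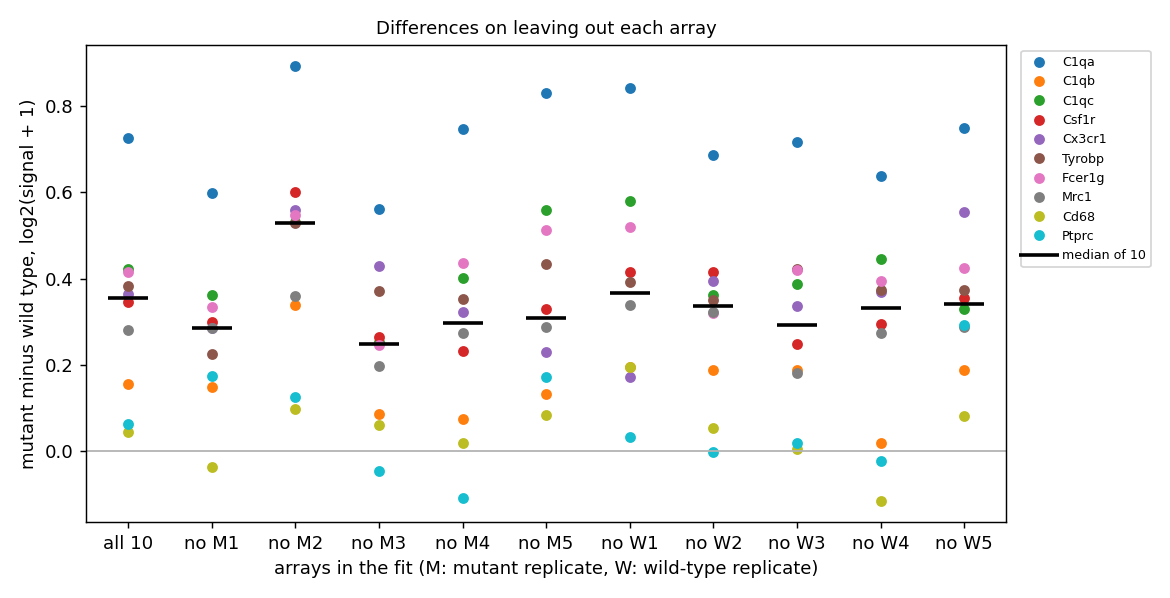
Difference between mutant and wild type in log2(signal + 1) for each of the 10 genes (coloured points) and their median (black bar), with all 10 arrays at the left and then with each array left out, M for mutant and W for wild-type replicates. The median is highest, at 0.53, without mutant replicate 2 and lowest, at 0.25, without mutant replicate 3, and points below 0 are those of Cd68 and Ptprc.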

How the data were processed

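Per the labels' protocols, about 1 ug of RNA from each pool was made into biotin-labelled cRNA for an Affymetrix Mouse Genome 430 2.0 array. The authors deposited 1 linear intensity per probe set, and every array has the same mean once 2% of values are trimmed from each end. How probes were summarised was not given in the sources used here. Of 45101 probe sets 64 were controls, 34958 had 1 symbol in the platform annotation, 932 had several and 9160 were unnamed. Of those with 1 symbol, 34754 matched RefSeq genes. Each of 18194 genes was its brightest probe set, as log2(signal + 1) with no further normalization. Groups follow the genotype labels, and replicate numbers follow sample order and only name arrays. limma 3.58.1 in R 4.3.3 (lmFit, eBayes, two-sided, Benjamini-Hochberg over all genes) compared them, after a check on simulated data. Detection calls were not used here, and the number of arrays limits the precision. List scores and likeness are means and correlations of log2 signal, with no test.

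All members are named. From each of 17 other lists (213 of 231 genes measured) the text names up to 4 genes with an unadjusted p under 0.05, or that with the smallest p, and the 10 genes most like the members. Further genes were chosen after their values were seen. Members and lists were chosen with earlier results of these data known. Alternatives were the mean of probe sets, single probe sets, leaving out the dimmest 40% of genes, quantile and median normalization, trend and robust moderation, array weights, a pseudocount of 16, blocks for shared title wording and for the 18S control, each 18S set alone, and leaving out arrays. The array table names no build, so probe sets have no coordinates, and the promoter windows and the gene order on chromosome 4 are those of RefSeq on GRCm38.p6.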

Additional observations from a re-analysis of the deposited data

Results flagged for a closer look

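Among 68 groups of 5 values (each member probe set, the mean of the members and the list means, in each genotype), 4 held an array separated from the rest by most of the group's range, where chance alone marks about 1 in 20. For C1qb on its brightest probe set, mutant replicate 2 lay at 8.05 (log2), below a range of 8.81 to 9.11 for the remaining mutants. On that probe set wild-type replicate 4 lay at 8.08, below 8.75 to 8.78 for its group. For Csf1r on its brightest probe set, mutant replicate 2 lay at 8.10, below 9.18 to 9.58 for the remaining mutants. For Ptprc, wild-type replicate 5 lay at 6.93, above 5.67 to 5.89 for its group. No explanation was tested for them.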

How the results depend on the processing

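No member passed the adjusted threshold under any alternative run. All 10 members were higher in the mutant with all arrays, and 8 to 10 were on leaving out single arrays, 9 with the mean of probe sets and 8 within the high-18S arrays. The median difference of 0.35 moved to between 0.25 and 0.53 on leaving out single arrays. It was 0.50 leaving out both arrays of brightest hybridisation controls, and 0.30 with a pseudocount of 16. With the title block, which pairs arrays whose titles share wording, it was 0.35. There 0 members had an unadjusted limma p under 0.05, a level at which 3.73% of all genes were higher. Blocks, other moderation and leaving out dim genes leave each difference as it is by construction and change its p alone. The direction turned in 10 cases, all of Cd68 and Ptprc. Cd68 was at -0.0781 within the high-18S arrays, -0.04 without mutant replicate 1 and -0.12 without wild-type replicate 4, and ran up to 0.19 on leaving out single arrays. Ptprc was at -0.27 with the mean of probe sets, -0.60 on its second probe set, -0.13 within the high-18S arrays, -0.05 and -0.11 without mutant replicates 3 and 4, and -0.0045 and -0.02 without wild-type replicates 2 and 4, and ran up to 0.29 on leaving out single arrays. The cause was not tested. Cx3cr1 and Ptprc drop out with the dimmest 40% of genes, and their low signal limits what their differences can show.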
